A study of Mus musculus with 9 samples.

Results

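The data described here are the levels of 10 T cell genes, Cd3d, Cd3e, Cd3g, Cd2, Lck, Thy1, Il2rb, Xcl1, Ifng and Cd8a, in neutrophils sorted from skin, papillomas and tumors of mice. The genes were chosen as subunits of the T cell receptor complex and as genes of cytotoxic or skin T cells, and every probe that carries such a gene name on the array and is not a control was kept. These were 12 of 55681 probes and 10 of 34797 gene names, with 2 probes for Cd2, 2 for Cd8a and 1 for each other gene.

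The study compared neutrophils of papillomas and tumors with neutrophils of the skin beside them. All groups came from FVB/N mice whose skin was painted with DMBA, a carcinogen, when they were 6 and 13 weeks old, and repeatedly with PMA, a tumor promoter, from week 1 to week 18 to 20, so that the skin groups were treated as well and no untreated skin was measured. Gr-1bright neutrophils, sorted by flow cytometry to a stated purity above 98%, came from skin next to papillomas (papilloma skin, 2 arrays), skin next to tumors (tumor skin, 2 arrays), papillomas (3 arrays) and tumors (2 arrays), and total RNA was labeled with Cy3 for one-color Agilent mouse arrays. Tissue of several mice was pooled for each array, so that p-values reflect the spread between arrays of pooled mice, and skin was digested with fewer enzymes than lesions, so that lesion and digestion cannot be told apart. The sort panel included antibodies to CD3, CD45R/B220 and NKp46, markers of T, B and natural killer cells.

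There were 9 arrays on 3 slides. Array 1 of every group was on slide 1, the second arrays of papilloma skin, papilloma and tumor were on slide 2, and tumor skin 2 and papilloma 3 were on slide 3. Levels are the log2 values that the authors deposited for each probe and array. The medians of the columns were 6.09 and 6.09 for papilloma skin, 6.11 and 6.09 for tumor skin, 6.1, 6.09 and 6.08 for papilloma, and 6.1 and 6.12 for tumor. The table has a log2 scale, and which normalization and slide correction it holds is not stated.

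The columns papilloma skin 1 and tumor 1 of the table stood apart, and calls of the member probes that rest on them are given with and without them. Of the called probes of the other lists described below, 22 of 38 in papilloma against papilloma skin and 39 of 55 in tumor against tumor skin stayed called without these columns, and none changed direction, while sums of levels are given by array. Spearman's rho across probes (which are no independent replicates) of a column with its own scanner file was 0.588 for papilloma skin 1 and 0.827 for tumor 1, and 0.931 to 0.980 for the other 7. For both, the scanner file of tumor 2 gave the highest rho, 0.924 and 0.947. For the column papilloma 2 it was the file of papilloma 3 (0.981), and for papilloma 3 the file of papilloma 2 (0.959), which leaves the mean of their group as it is but not the fits with slide as a block or the differences within slide 2. The slide of the columns papilloma skin 1 and tumor 1 is uncertain as well, since the file of tumor 2 was on slide 2. Differences within slide 1 that use either column, and the fits with slide as a block, carry this limit too. Signal of the spike-in RNAs climbed with their amount at a slope of 0.678 for papilloma skin 1, 0.876 for tumor skin 1, 0.894 for tumor 1 and 1.04 to 1.06 for the other 6 arrays. Signal range was thus compressed on these 3 arrays, where 95%, 90.7% and 94.3% of probes were well above background, against 43.5% to 63.5% on the others.

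T cells recognize antigen through a receptor whose variable chains are carried to the surface by the CD3 subunits, which pass the signal on to the kinase Lck. Activated T cells and natural killer cells respond to interleukin-2 and interleukin-15 through the receptor chain Il2rb and release interferon gamma and the chemokine Xcl1. Mouse skin holds resident T cells, among them gamma delta T cells of the epidermis that carry Thy1, whereas neutrophils are myeloid cells.

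The neutrophil label was checked against 15 neutrophil genes with 18 probes, all of which reached a mean log2 level of 6. S100a9, a calcium-binding protein stored by neutrophils, had the highest level among them, 18.56 on average. The summed linear level of the neutrophil probes was 1230000 and 1280000 in papilloma skin, 1460000 and 1370000 in tumor skin, 1010000, 1050000 and 1020000 in papilloma, and 1170000 and 1090000 in tumor. Neutrophil genes were thus high on each array, and the sum was lower on every lesion array than on every skin array. Of the 12 member probes, 9 were well above background on all 9 arrays. The Xcl1 probe was well above background on 8 arrays, all but tumor 2, and the Cd8a probes on 4 and 6 arrays. The T cell genes other than Cd8a were therefore measured in most of these preparations, and in bulk samples fewer cells of a type and less RNA per cell cannot be told apart.

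A probe was called when its limma p, adjusted by Benjamini and Hochberg over all 55681 probes, did not exceed 0.05, its log2 fold change reached 1 in size and its mean log2 level reached 6. The level minimum was reached by 10 of the 12 member probes, all but those of Cd8a. In papilloma against papilloma skin, 3 of 12 member probes were called, those of Il2rb, Xcl1 and Ifng, all lower in papilloma, while 3.18% of all probes were called in either direction, 2.18% higher and 1.00% lower in papilloma, or 1.93% lower among the 28871 probes that reached the level minimum. For tumor against tumor skin, 2 of 12 were called, those of Cd3d and Xcl1, both lower in tumor, while 4.21% of all probes were called in either direction, 2.71% higher and 1.51% lower in tumor, or 2.91% lower among those that reached the level minimum. With the lesion groups averaged against the skin groups, 3 of 12 member probes were called lower, those of Cd3d, Xcl1 and Ifng, while 3.62% of all probes were called in either direction and 1.33% lower. For these 3 probes no lesion array reached the lowest skin array, as for 4.65% of all probes.

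The other comparisons called 0 member probes in limma. Tumor against papilloma had 2 of 12 member probes at an unadjusted p under 0.05, beside 14.4% of all probes (0.447% were called), tumor skin against papilloma skin had 9, beside 22.7% (0.260% called), and the contrast of the tumor with the papilloma lesion effect had 5, beside 14.7% (0.0269% called). An effect past the threshold at one stage only is thus not shown to differ between the stages. The lesion effects share no array, but the skin arrays of a stage enter both its lesion effect and the comparison of the skins. When the columns papilloma skin 1 and tumor 1 were left out, the called member probes numbered 1 in papilloma against papilloma skin (Cd3d), 1 in tumor against tumor skin (Cd3d) and 3 in lesions against skin (Cd3d, Xcl1 and Thy1), while 1.83%, 3.16% and 4.17% of all probes were called. Papilloma skin and tumor then have 1 array each, and the spread comes from papilloma and tumor skin alone.

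**Figure D1:**
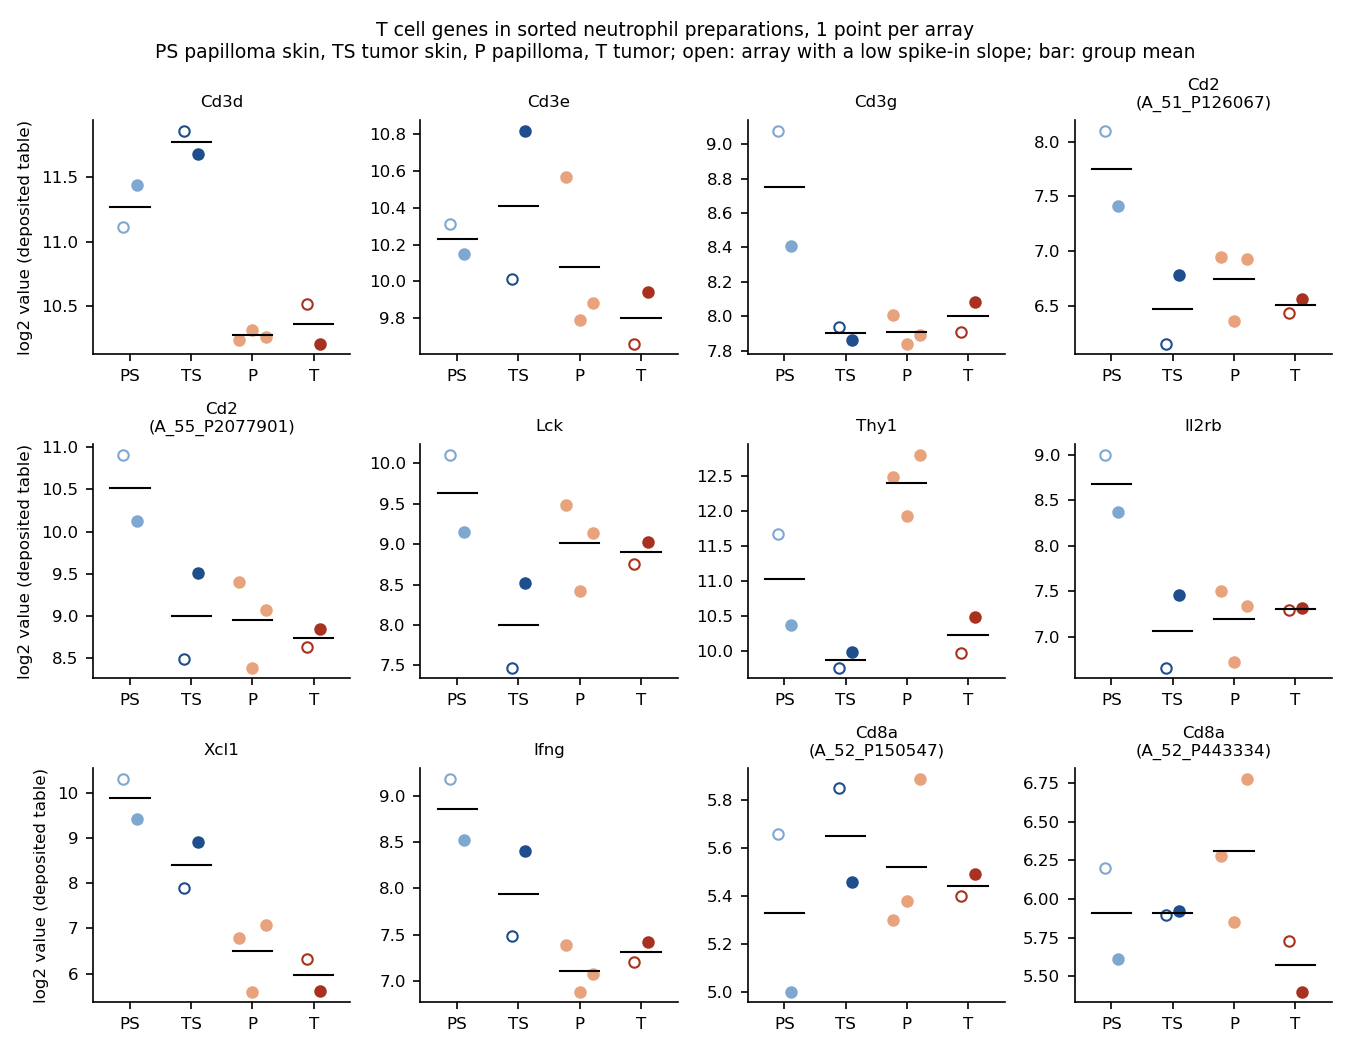
Log2 level of each of the 12 member probes in the value table, by group (points are arrays, open points are the 3 arrays with a low spike-in slope, bars are group means). Xcl1 lay at 5.60 to 7.07 on the lesion arrays and at 7.89 to 10.31 on the skin arrays, and its lesion differences did not flip in any of the 6 scanner-file settings, and Thy1 was highest on the 3 papilloma arrays, at 11.93 to 12.81.

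Cd3d, Cd3e and Cd3g encode the delta, epsilon and gamma subunits of CD3 and sit side by side on chromosome 9, where 1337 bases separate Cd3g from Cd3d and 11682 bases separate Cd3d from Cd3e (RefSeq, GRCm38.p6). The Cd3d probe mapped to chr9:44794171-44794402 of mm9, on the plus strand, and is shown since Cd3d was called in 2 comparisons; its 60 bases span 232 bases of genome.
Cd3d probe: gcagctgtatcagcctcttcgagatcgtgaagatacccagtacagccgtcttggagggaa
Cd3d had a log2 level of 11.11 and 11.44 in papilloma skin, 11.86 and 11.68 in tumor skin, 10.24, 10.32 and 10.26 in papilloma, and 10.52 and 10.21 in tumor. In the value table each skin array lay above each lesion array, tumor skin above papilloma skin, while the papilloma and tumor arrays overlapped. The group means were 11.27 ± 0.23 (SD, n = 2) in papilloma skin, 11.77 ± 0.13 (n = 2) in tumor skin, 10.28 ± 0.04 (n = 3) in papilloma and 10.36 ± 0.22 (n = 2) in tumor. In tumor against tumor skin Cd3d fell by 1.41 on the log2 scale (SE 0.175, 95% interval -1.86 to -0.96, limma adjusted p = 0.00407), or 2.65-fold. In lesions against skin Cd3d fell by 1.2 on the log2 scale (SE 0.118, limma adjusted p = 0.000578). The difference of papilloma from papilloma skin was -1 on the log2 scale (SE 0.159, limma adjusted p = 0.00972), or 1.997-fold, which lay just under the fold that a call needs.

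The tumor call for Cd3d held when each of the 9 arrays was left out in turn, with limma adjusted p from 0.00628 to 0.0403. Without the columns papilloma skin 1 and tumor 1, the Cd3d log2 fold change was -1.56 in tumor against tumor skin (limma adjusted p = 0.0210), -1.16 in papilloma against papilloma skin (0.0336) and -1.36 in lesions against skin (0.00528), and all 3 were called. The papilloma difference was also called without papilloma skin 1 (log2 fold change -1.16, limma adjusted p = 0.0281) or without papilloma 2 (-1.02, 0.0336), and it flipped to 0.16 from scanner files scaled to the 75th percentile. With slide as a block the tumor call was lost (log2 fold change -1.46, limma adjusted p = 0.0784, range over all alternatives 0.00355 to 1). This block called 0.375% of all probes in tumor against tumor skin, against 4.21% in the main fit. Within slide 1, tumor 1 minus tumor skin 1 was -1.34 and papilloma 1 minus papilloma skin 1 was -0.86 on the log2 scale, and within slide 2, papilloma 2 minus papilloma skin 2 was -1.12 (-1.18 with papilloma 3 in its place).

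Cd3e, measured by a probe at chr9:44806828-44806887 of mm9, had a log2 level of 10.31 and 10.15 in papilloma skin, 10.01 and 10.82 in tumor skin, 10.57, 9.79 and 9.88 in papilloma, and 9.66 and 9.94 in tumor. Its papilloma arrays overlapped the papilloma skin arrays and its tumor arrays lay below both tumor skin arrays, tumor 2 only slightly. The log2 fold change was -0.15 (SE 0.296, limma adjusted p = 0.828) in papilloma against papilloma skin and -0.61 (SE 0.324, limma adjusted p = 0.268) in tumor against tumor skin, or -0.07 and -0.47 without papilloma skin 1 and tumor 1. The papilloma value of Cd3e flipped in all 6 scanner-file settings, to between 0.40 and 1.05. Unlike the Cd3d probe, the Cd3e probe thus gave no called difference between lesions and skin, and whether the 2 genes differ was not tested.

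Cd3g, measured by a probe at chr9:44777868-44777927 of mm9, had a log2 level of 9.08 and 8.41 in papilloma skin, 7.94 and 7.86 in tumor skin, 8.01, 7.84 and 7.89 in papilloma, and 7.91 and 8.08 in tumor. Papilloma skin held both of its highest values, and the arrays of tumor skin, papilloma and tumor overlapped, between 7.84 and 8.08. The log2 fold change of papilloma against papilloma skin was -0.83 (SE 0.198, limma adjusted p = 0.0464), under the fold that a call needs, and -0.49 without the columns papilloma skin 1 and tumor 1. From the scanner files it was -0.58 with ComBat and -0.27 after scaling to the 75th percentile, and it flipped to 0.16 on the 6 full-slope arrays. Before scaling, the scanner signal of Cd3g was 6.48 in papilloma skin 2 and 6.39 in tumor skin 2, the lowest of the 9 arrays. In the value table tumor skin was thus highest for Cd3d and papilloma skin for Cd3g, an order that the full-slope scanner files did not give for Cd3g.

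Lck, the kinase that phosphorylates the CD3 chains (probe at chr4:129225614-129225673 of mm9), had a log2 level of 10.11 and 9.15 in papilloma skin, 7.47 and 8.52 in tumor skin, 9.49, 8.42 and 9.14 in papilloma, and 8.76 and 9.03 in tumor. Papilloma arrays overlapped papilloma skin arrays, and both tumor skin arrays lay below both papilloma skin arrays and below both tumor arrays. The log2 fold change of tumor skin against papilloma skin was -1.64 (SE 0.465, limma adjusted p = 0.112), which was not called, and -1.15 without papilloma skin 1 and tumor 1. This direction flipped in all 6 settings that start from the scanner files, where the Lck value lay between 0.40 and 2.04. Tumor against tumor skin gave 0.90 (limma adjusted p = 0.257), and -1.11 from the scanner files with ComBat, so that no direction held for Lck across the value sources.

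Cd2, an adhesion receptor of T and natural killer cells, had 2 probes. The probe at chr3:101079831-101079890 of mm9 gave a log2 level of 10.91 and 10.13 in papilloma skin, 8.49 and 9.51 in tumor skin, 9.40, 8.39 and 9.07 in papilloma, and 8.64 and 8.85 in tumor. The other Cd2 probe, present as 10 spots, gave 8.10 and 7.41 in papilloma skin, 6.16 and 6.79 in tumor skin, 6.95, 6.37 and 6.93 in papilloma, and 6.44 and 6.57 in tumor. With both probes the papilloma skin arrays lay above all other arrays, and tumor skin, papilloma and tumor overlapped. The log2 fold change of papilloma against papilloma skin was -1.56 (SE 0.390, limma adjusted p = 0.0547) with the single-spot probe and -1.01 (SE 0.282, limma adjusted p = 0.0800) with the other, and neither was called. The Cd2 difference of the single-spot probe was called without tumor skin 1 (limma adjusted p = 0.0316) or without tumor skin 2 (0.0316), arrays that are in neither group but set the shared spread, and the range over all alternatives was 0.0316 to 0.921. Without papilloma skin 1 and tumor 1 the values were -1.17 and -0.66, and from the scanner files with ComBat the directions flipped to 0.17 and 0.68.

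Thy1, a surface glycoprotein of mouse T cells that fibroblasts and other cells also carry, was measured by a probe at chr9:43856591-43856650 of mm9. Its log2 level was 11.68 and 10.37 in papilloma skin, 9.76 and 9.98 in tumor skin, 12.49, 11.93 and 12.81 in papilloma, and 9.97 and 10.48 in tumor. Papilloma stood above all other arrays, and tumor overlapped with both skin groups. The log2 fold change of tumor against papilloma was -2.18 (SE 0.394, limma adjusted p = 0.0614), which missed the threshold although every tumor array lay below every papilloma array. This Thy1 difference was called without papilloma skin 1 (limma adjusted p = 0.0349) or without papilloma skin 2 (0.0349), with a range over all alternatives of 0.0349 to 0.948, and it was -1.93 (0.227) without papilloma skin 1 and tumor 1. Papilloma against papilloma skin gave 1.38 (SE 0.394, limma adjusted p = 0.0848), or 2.04 (0.0540) without papilloma skin 1 and tumor 1, and it was called without papilloma skin 1 alone (2.04, 0.0348). Scanner files with ComBat gave 3.11 for the same comparison (limma adjusted p = 0.00591, called), and no alternative turned the direction of Thy1 in either comparison.

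Fibroblast and endothelial markers were set beside Thy1. Of 9 fibroblast genes, all on the array, 3 were called higher in papilloma than in papilloma skin: Postn (log2 fold change 3.09), Pdgfrb (3.23) and Fbn1 (1.41), beside Col1a2 (1.78), Dcn (-0.58) and Col1a1 (1.88), which were not called. The summed linear level of the fibroblast probes was 26000 and 12600 in papilloma skin, 8180 and 9140 in tumor skin, 51500, 36500 and 39500 in papilloma, and 5610 and 15400 in tumor. The Col1a2 probe was brightest on average over all arrays, at a mean log2 level of 12.42, while Dcn made up the largest part of the sum on each skin array (33.8% to 53.6%). Thy1 and the fibroblast sum were thus both highest on the 3 papilloma arrays and next highest on papilloma skin 1, and the part of fibroblast RNA in the Thy1 level was not tested. Of 8 endothelial genes, 5 were called higher in papilloma: Pecam1 (1.45), Kdr (2.26 with the probe of mean log2 level 7.56, and -0.03 with the one of level 12.70), Cdh5 (2.57), Tie1 (1.61) and Emcn (1.85), beside Vwf (0.49), Eng (1.52) and Tek (0.21). The endothelial sums, 62.8% to 95.8% of which came from Kdr, were 8860 and 7500 in papilloma skin, 9350 and 16800 in tumor skin, 13400, 7880 and 9820 in papilloma, and 5850 and 6760 in tumor, and did not follow Thy1. Without Kdr they were 2700 and 971 in papilloma skin, 832 and 711 in tumor skin, 3880, 2760 and 3650 in papilloma, and 1080 and 1790 in tumor, highest on the papilloma arrays.

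Cd8a, a chain of the coreceptor of cytotoxic T cells, had 2 probes and both stayed under the level minimum. The probe at chr6:71323885-71323944 of mm9 had a log2 level of 5 to 5.89 over the 9 arrays and was well above background on 4, of which only papilloma 2 was among the 6 full-slope arrays. The probe at chr6:71328911-71328970, with 10 spots, had a level of 5.40 to 6.78 and was well above background on 6 arrays, of which the 3 papilloma arrays (6.28, 5.85 and 6.78) had a full slope. On the other 3 full-slope arrays neither Cd8a probe was well above background.

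Il2rb, the beta chain of the receptors for interleukin-2 and interleukin-15 (probe at chr15:78311109-78311168 of mm9), had a log2 level of 9 and 8.37 in papilloma skin, 6.66 and 7.46 in tumor skin, 7.50, 6.72 and 7.34 in papilloma, and 7.29 and 7.32 in tumor. The papilloma skin arrays lay above all others, and tumor skin, papilloma and tumor overlapped. Il2rb fell by 1.5 on the log2 scale in papilloma against papilloma skin (SE 0.314, 95% interval -2.30 to -0.69, limma adjusted p = 0.0290), or 2.82-fold, with 3 of 3 papilloma arrays below both papilloma skin arrays. In tumor skin against papilloma skin the log2 fold change was -1.62 (limma adjusted p = 0.0682), not called, or -1.31 (0.333) without papilloma skin 1 and tumor 1, and it flipped in 3 of 6 scanner-file settings (0.32 with ComBat), and in tumor against tumor skin it was 0.25. The lesion effects of the stages differed by 1.74 on the log2 scale (limma adjusted p = 0.191, unadjusted p = 0.00538), or by 1.445 (0.545) without these columns, so that a difference between the stages did not pass the adjustment.

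The Il2rb call depended on single arrays. It was lost without papilloma skin 1 (limma adjusted p = 0.159), papilloma skin 2 (0.0577), papilloma 2 (0.0715), papilloma 3 (0.0759), tumor 1 (0.0506) or tumor 2 (0.0506), while the log2 fold change stayed between -1.81 and -1.19. Without the columns papilloma skin 1 and tumor 1 it was -1.19 (0.224), and the range of adjusted p over all alternatives was 0.0177 to 0.976. From the scanner files with ComBat the Il2rb value flipped to 0.12, with a slide term to 0.13 and with quantile normalization alone to 0.25, against -0.03 with normexp, -0.46 after scaling to the 75th percentile and -1.32 on the 6 full-slope arrays. With slide as a block the call held (log2 fold change -1.68, limma adjusted p = 0.0472), and within slides papilloma minus papilloma skin was -1.5 on slide 1 and -1.65 on slide 2 (-1.03 with papilloma 3 in place of papilloma 2).

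Xcl1 encodes a chemokine that cytotoxic and natural killer cells release and that draws dendritic cells with the receptor Xcr1. Its probe mapped to chr1:166862020-166862079 of mm9, on the minus strand, and is shown with the promoter since Xcl1 had the largest log2 fold change among the member probes in both lesion comparisons of the value table. The promoter is the stretch of 250 bases before the start at chr1:164935523-164935772 of GRCm38.p6 (RefSeq, minus strand), with the letters ATAAAA in capitals.
Xcl1 probe: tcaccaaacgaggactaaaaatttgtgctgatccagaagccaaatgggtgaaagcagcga
Xcl1 promoter: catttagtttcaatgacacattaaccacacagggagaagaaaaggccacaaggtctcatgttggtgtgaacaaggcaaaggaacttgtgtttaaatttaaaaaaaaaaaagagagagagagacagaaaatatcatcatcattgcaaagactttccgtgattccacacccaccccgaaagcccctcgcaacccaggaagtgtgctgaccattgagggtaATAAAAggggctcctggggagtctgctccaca
Xcl1 had a log2 level of 10.31 and 9.42 in papilloma skin, 7.89 and 8.91 in tumor skin, 6.79, 5.60 and 7.07 in papilloma, and 6.33 and 5.62 in tumor. Each skin array lay above each lesion array, while papilloma and tumor overlapped. Papilloma skin lay above tumor skin, a difference that was not called (log2 fold change -1.47, limma adjusted p = 0.177) and that flipped in all 6 scanner-file settings, to between 0.19 and 0.44. Group means were 9.87 ± 0.63 (SD, n = 2) in papilloma skin, 8.40 ± 0.72 (n = 2) in tumor skin, 6.49 ± 0.78 (n = 3) in papilloma and 5.97 ± 0.50 (n = 2) in tumor. Xcl1 fell by 3.38 on the log2 scale in papilloma against papilloma skin (SE 0.505, 95% interval -4.68 to -2.08, limma adjusted p = 0.00735), or 10.4-fold. In tumor against tumor skin Xcl1 fell by 2.43 on the log2 scale (SE 0.553, 95% interval -3.85 to -1.01, limma adjusted p = 0.0324), a size that is uncertain since tumor 2 was not well above background and tumor 1 had a compressed signal range. In lesions against skin Xcl1 fell by 2.91 on the log2 scale (SE 0.374, limma adjusted p = 0.00194).

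None of the 22 alternatives turned the direction of Xcl1 in these 3 comparisons, but several ended a call. The papilloma call for Xcl1 was lost without papilloma skin 1 (log2 fold change -2.94, limma adjusted p = 0.0590), and the tumor call without tumor skin 2 (0.110), tumor 1 (0.0703) or tumor 2 (0.188). Without the columns papilloma skin 1 and tumor 1 the log2 fold change was -2.94 (0.0942) in papilloma against papilloma skin, -2.79 (0.0856) in tumor against tumor skin and -2.86 (0.0231, called) in lesions against skin. With slide as a block Xcl1 was called in papilloma against papilloma skin (-3.76, limma adjusted p = 0.00473) and not in tumor against tumor skin (-1.65, 0.0717). This block called 1.76% of all probes in the former comparison and 0.375% in the latter. The range of adjusted p over all alternatives was 0.00473 to 0.516 for papilloma and 0.0209 to 1 for tumor. Within slides, papilloma minus papilloma skin was -3.52 on slide 1 and -3.82 on slide 2 (-2.35 with papilloma 3 in place of papilloma 2), and tumor minus tumor skin was -1.57 on slide 1, the only slide that holds both groups.

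In the scanner files the log2 signal of Xcl1 was 9.02 and 7.99 in papilloma skin, 7.83 and 8.01 in tumor skin, 4.56, 6.09 and 4.60 in papilloma, and 7.57 and 3.06 in tumor, before any scaling between arrays. All papilloma arrays lay below all skin arrays there too, and of the tumor arrays, tumor 1, with a compressed signal range, lay near the skin arrays and tumor 2 was not well above background. The unscaled signal of Cd3d did not separate skin from lesions, with 11.07 and 10.48 in papilloma skin, 12.32 and 10.38 in tumor skin, 10.09, 10.38 and 10.59 in papilloma, and 10.82 and 10.85 in tumor. That of Ifng, 7.63 and 6.88 in papilloma skin, 7.46 and 7.67 in tumor skin, 5.97, 5.90 and 7.30 in papilloma, and 7.26 and 7.12 in tumor, overlapped as well.

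Ifng encodes interferon gamma, the cytokine through which T and natural killer cells activate macrophages. It was measured by a probe with 2 spots at chr10:117882841-117882900 of mm9, and its promoter at chr10:118440796-118441045 of GRCm38.p6 (RefSeq, plus strand) is shown to set beside that of Xcl1, with the same letters in capitals.
Ifng promoter: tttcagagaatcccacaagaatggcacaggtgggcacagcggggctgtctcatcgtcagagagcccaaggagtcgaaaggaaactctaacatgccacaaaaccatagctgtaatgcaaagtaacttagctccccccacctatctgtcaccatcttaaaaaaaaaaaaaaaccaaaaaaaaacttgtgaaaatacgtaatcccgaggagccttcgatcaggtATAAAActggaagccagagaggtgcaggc
Ifng had a log2 level of 9.19 and 8.52 in papilloma skin, 7.48 and 8.40 in tumor skin, 7.39, 6.88 and 7.07 in papilloma, and 7.20 and 7.42 in tumor. As for Xcl1, each skin array lay above each lesion array, although tumor skin 1 and tumor 2 were close. Papilloma skin lay above tumor skin in the value table (-0.92, limma adjusted p = 0.168), which flipped in all 6 scanner-file settings, to between 0.76 and 1.46. Ifng fell by 1.74 on the log2 scale in papilloma against papilloma skin (SE 0.306, 95% interval -2.53 to -0.96, limma adjusted p = 0.0146), or 3.35-fold, and by 1.19 in lesions against skin (SE 0.227, limma adjusted p = 0.0110). Tumor against tumor skin gave -0.63 (limma adjusted p = 0.269), not called, with both tumor arrays below both tumor skin arrays.

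The Ifng call in papilloma was lost without papilloma skin 1 (log2 fold change -1.41, limma adjusted p = 0.0942), papilloma 2 (0.05003) or papilloma 3 (0.0571), with a range over all alternatives of 0.00606 to 0.953. In lesions against skin Ifng kept its call without each array but tumor skin 2, where its log2 fold change of -0.96 was under the fold that a call needs (limma adjusted p = 0.0196). Without the columns papilloma skin 1 and tumor 1 Ifng had -1.41 (0.144) in papilloma against papilloma skin and -0.97 (0.0858) in lesions against skin, neither called. From the scanner files the papilloma value of Ifng flipped to 0.33 with ComBat, 0.28 with a slide term, 0.66 with quantile normalization alone and 0.09 with normexp, against -0.28 after scaling to the 75th percentile and -1.53 on the 6 full-slope arrays, while in lesions against skin it was below 0 in all 6. With slide as a block the papilloma value was -1.88 (limma adjusted p = 0.0562), and within slides papilloma minus papilloma skin was -1.80 on slide 1 and -1.64 on slide 2 (-1.45 with papilloma 3 in place of papilloma 2).

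RefSeq promoters were matched for 7 of the 10 member genes, Lck with 2 and the others with 1, which gave 8 promoters. The letters ATAAAA were on the gene's strand at positions -32 to -27 of Xcl1 and -29 to -24 of Ifng, counted from the start, and on the opposite strand at -239 to -234 of Cd8a, and 17.0% of 32851 promoters held them on either strand within the same 250 bases. TATAAA, which overlaps ATAAAA by all but its first base when both are present as TATAAAA, was at -30 to -25 of Ifng and in no other member promoter, against 12.4% of all promoters. TGANTCA was in none of the 8 (6.7% of all promoters), TCACAC was in both Lck promoters and that of Xcl1 (12.3%), and GGAAA was in 7 of 8 (55.6%), each searched on both strands. These matches describe letters in a window and are no evidence of a binding site.

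**Figure D2:**
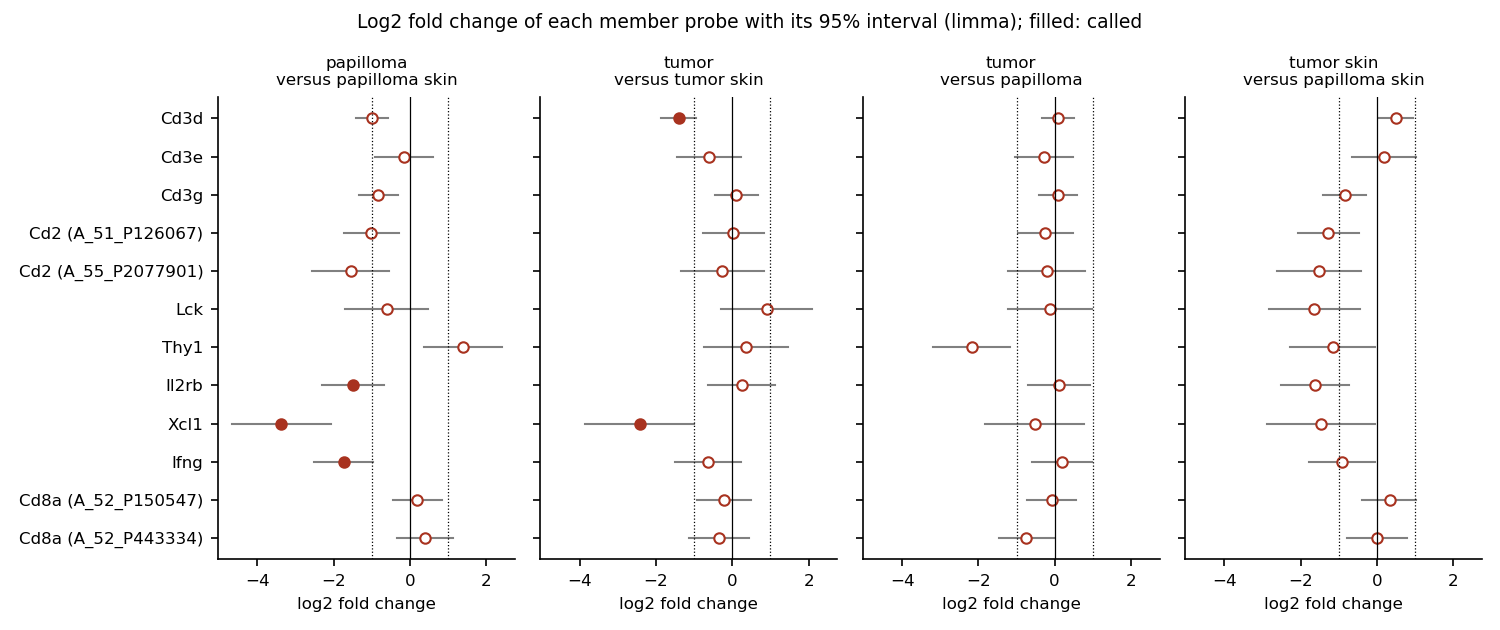
Log2 fold change of the 12 member probes in 4 comparisons with 95% intervals, filled where called. Xcl1 in papilloma against papilloma skin lay lowest, at -3.38, and kept its sign in all scanner-file settings, whereas Il2rb at -1.5 and Ifng at -1.74 turned to 0.12 and 0.33 from scanner files with ComBat.

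The members did not vary as a unit. Over the 9 columns, Pearson's r between members, each by its probe with the highest mean level, was 0.97 for Cd2 and Il2rb, 0.92 for Xcl1 and Ifng, 0.91 for Cd2 and Ifng and 0.90 for Cd3g and Il2rb (n = 9 columns, which share slides and the normalization). Without papilloma skin 1 and tumor 1 these were 0.96, 0.87, 0.80 and 0.81 (n = 7). Lck had 0.81 with Il2rb and 0.75 with Cd2, or 0.68 and 0.59 without the 2 columns. With Cd3g, Ifng and Xcl1 it had 0.69, 0.46 and 0.31, or 0.40, 0.06 and -0.11. Among Cd2, Cd3g, Il2rb, Xcl1 and Ifng the lowest r was 0.70, for Cd3g and Xcl1, or 0.42 without the 2 columns. Papilloma skin 1 was highest for each of these 5 genes and Lck. The CD3 subunits correlated less, with r of 0.41 for Cd3d and Cd3e, 0.21 for Cd3d and Cd3g and 0.19 for Cd3e and Cd3g (n = 9), and Cd3d and Thy1 ran opposite to each other, with r of -0.64. The mean of the 10 centred member values was 1.08 and 0.45 in papilloma skin, -0.36 and 0.20 in tumor skin, 0.11, -0.53 and 0.03 in papilloma, and -0.50 and -0.47 in tumor. Papilloma skin 1, a column that stood apart, had the highest member mean and papilloma 2 the lowest, and both papilloma skin arrays lay above all others.

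The genes most like the members, by Pearson's r with this mean over the 9 columns among 4978 probes, were Cd83 (r = 0.986), AI607873 (0.985), Tep1 (0.984), BC096441 (0.984), Olfm1 (0.981), Stxbp6 (0.979), Tusc1 (0.979) and Lpxn (0.977), with r from 0.940 to 0.980 for the 8 over the 7 columns without papilloma skin 1 and tumor 1. Cd83, a surface protein of mature dendritic cells and activated lymphocytes, was called lower in papilloma than in papilloma skin (log2 fold change -2.06, flipped in 5 of 6 scanner-file settings), as were AI607873 (-1.90, flipped in 4) and BC096441 (-1.86, flipped in 3). From the scanner files with ComBat these 8 genes had values between 0.00 (BC096441) and 1.65 (Lpxn) in that comparison, so that their likeness to the member mean holds for the value table, where papilloma skin 1 was highest for the mean.

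**Figure D3:**
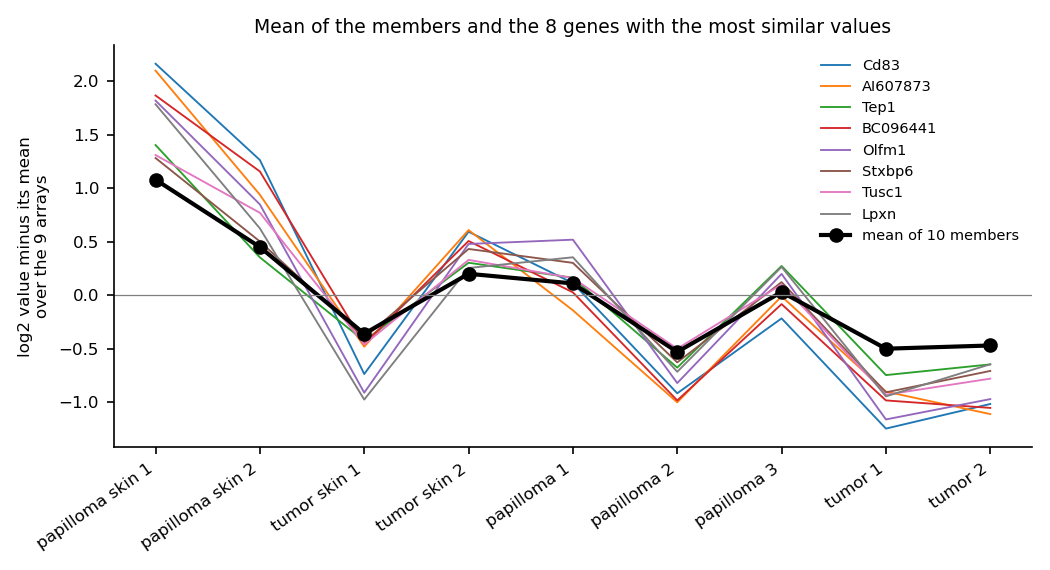
Centred log2 levels of the 8 genes most like the members and of the mean of the 10 member genes, by array. The member mean ran from -0.53 in papilloma 2 to 1.08 in papilloma skin 1, and the 8 genes, led by Cd83 with r of 0.986 over 9 columns, followed it in the value table, while Cd83 in papilloma against papilloma skin flipped from -2.06 to 0.42 with scanner files and ComBat.

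Other genes of T cell pathways were described by lists. The member list itself had a median log2 fold change of -0.92 in papilloma against papilloma skin and -0.23 in tumor against tumor skin, against -0.01 and -0.02 over all probes. Of 22 listed genes of T cell receptor chains and CD3 zeta, 5 were on the array by name, and limma called 0 of their 6 probes in either comparison. At an unadjusted p under 0.05 were 2 and 1 of them, beside 20.7% and 26.9% of all probes. Cd247, the zeta chain, stood at -1.18 on the log2 scale (SE 0.442, limma adjusted p = 0.173) in papilloma against papilloma skin and -0.05 in tumor against tumor skin, Tcrg-V1 0.00 and 0.13, and Tcra 0.15 and -0.15. Of 20 genes of T cell receptor signaling with 36 probes, Ptpn22 was called lower in papilloma than in papilloma skin (-1.60, flipped in 5 of 6 scanner-file settings), beside Vav1 (0.28), Lcp2 (-0.38) and Ptprcap (-0.12). In tumor against tumor skin limma called 0 of the 36, with 6 at an unadjusted p under 0.05, beside 26.9% of all probes. Vav1, Lcp2 and Ptpn22 had values of 0.47, -0.88 and -0.30 there.

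Coreceptors and costimulatory genes (18 genes, 24 probes) went both ways. In papilloma against papilloma skin Tnfrsf9, a costimulatory receptor, was called higher (1.47 with the probe of mean log2 level 6.48, and 0.64 with the one of level 10.97) and Cd7 lower (-1.90), beside Cd4 (0.18), Tnfrsf18 (-0.68) and Cd6 (-0.33). Tumor against tumor skin had Icos (2.64, and 0.96 and 0.90 with its other 2 probes) and Tnfrsf9 (1.51, and 0.23 with the brighter probe) called higher and Cd7 (-1.37) and Tnfrsf18 (-1.07) lower, beside Cd4 (-0.49), Cd6 (-0.63) and Tnfrsf4 (0.52). Among 13 T cell transcription factors with 21 probes, Tbx21, which drives Ifng in T cells, was called lower in papilloma (-1.35), beside Satb1 (-0.79), Ets1 (0.57) and Gata3 (-0.62). For tumor against tumor skin, Ets1 was called higher with 2 probes (1.27 and 1.04) and Satb1 (-1.46) and Lef1 (-1.31, and -0.69 with its other probe) lower, beside Gata3 (0.05), Tbx21 (-0.77) and Runx3 (-0.26).

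Of 18 genes of skin and gamma delta T cells, 16 were on the array with 19 probes. Zbtb16 was called lower in papilloma (-1.06, flipped in 4 of 6 scanner-file settings), beside Amica1 (-0.80), Sox13 (0.33) and Cxcr6 (0.24). At the tumor stage the cytokine Il17a (3.50), Cd163l1 (2.36) and Cxcr6 (2.01, and 1.47 with its other probe) were called higher, beside Amica1 (-1), Sox13 (-0.67) and Zbtb16 (-0.98). Natural killer and cytotoxic genes (22 of 23 on the array, 30 probes), which cells that release Xcl1 and Ifng also carry, had Ctsw (-2.54) and Nkg7 called lower in papilloma, Nkg7 with its probe of mean log2 level 7.44 (-2.14, flipped in 2 of 6 scanner-file settings) and not with that of level 10.88 (-0.27), beside Cd244 (-0.31), Klra1 (-0.01) and Ccl5 (-0.81). Between tumor and tumor skin, Ctsw was called lower (-2.06) and Gzmb (1.33) and Klra4 (2.55) higher, beside Cd244 (-0.62), Nkg7 (-1.34 and -0.55 in the same order) and Klra1 (0.38). Ctsw, a protease of cytotoxic cells, was thus called lower in both lesion comparisons, as Xcl1 was. Without the columns papilloma skin 1 and tumor 1 the Ctsw values were -2.31 in papilloma and -2.02 in tumor, and, as for Xcl1, neither was called. The summed linear level of this list was 13400 and 13500 in papilloma skin, 12400 and 12400 in tumor skin, 9960, 9970 and 9690 in papilloma, and 9000 and 8770 in tumor, with the Cd244 probe brightest at a mean log2 level of 12.30, and it was higher on every skin array than on every lesion array, but without Cd244 tumor skin 1 (4690) lay below papilloma 1 (5860). Its part in the Xcl1 and Ifng differences was not tested.

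Among partners of Il2rb (9 genes, 12 probes), Il2 was called lower in papilloma against papilloma skin (-1.25), beside Jak1 (0.07), Stat5b (-0.64) and Il15ra (0.46). In tumor against tumor skin, where Il2rb had 0.25, Jak3 with 2 probes (1.31 and 1.77) and Il2ra (1.31) were called higher and Stat5b lower (-1.13, and -0.65 with its other probe), beside Jak1 (-0.25), Il15ra (0.22) and Il15 (0.22). The papilloma call of Il2 (-0.93) and the tumor call of Il2ra (1.49) were lost without the columns papilloma skin 1 and tumor 1. Among 10 ligands and receptors of the members with 16 probes, Cd48, the ligand of Cd2 in the mouse, was called lower in papilloma (-1.23) and in tumor (-1.19), with -1 and -1.06 from its other probe. Neither Cd48 call stayed without the columns papilloma skin 1 and tumor 1 (-0.89 and -1.36). Beside Cd48, H2-D1 (-0.35), B2m (-0.29) and H2-K1 (-0.05) were not called in papilloma, and in tumor Itgb3 was lower (-1.64, and -0.27 with its other probe) and Itgav higher (1.18, and 0.56), beside H2-D1 (-0.27), B2m (-0.53) and H2-K1 (0.40).

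Targets of interferon gamma (25 genes, 35 probes) were set beside Ifng, which was lower in lesions. In papilloma against papilloma skin Cd274 (1.35) and Socs1 (1.12) were called higher and Ciita lower (-1.04), beside Cxcl11 (-0.23), Irf1 (-0.06) and Gbp2 (-0.24), and the list's median was -0.17. Tumor had, against tumor skin, Cd274 (1.39), Cxcl10 (2.04, and 0.27 with its other probe), Irgm1 (1.58 and 1.5), Gbp5 (1.88, flipped in 2 of 6 scanner-file settings, and -0.58 with its other probe) and Socs1 (1.55) called higher. Cd74 (-2.47), H2-Ab1 (-2.33) and Ciita (-1.28), genes of antigen presentation, were called lower there, beside Cxcl11 (-0.19), Irf1 (0.20) and Gbp2 (-0.01), and the median was 0.15. Leaving out the columns papilloma skin 1 and tumor 1 kept these directions but ended the papilloma calls of Cd274 and Socs1. The tumor calls of Socs1, Gbp5, Cd74, H2-Ab1 and the Irgm1 probe at 1.5 were lost there too.

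**Figure D4:**
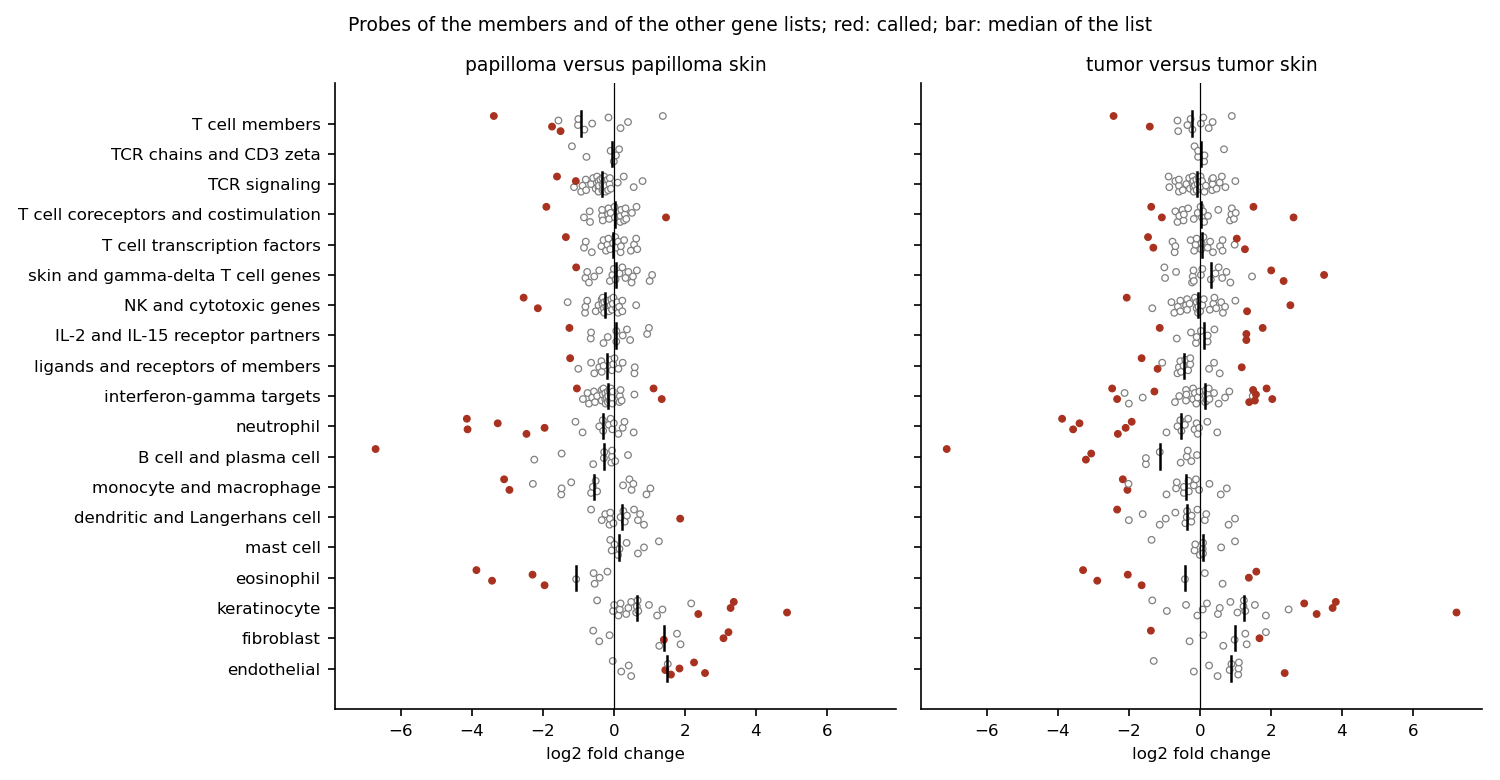
Log2 fold change of each probe of the member list and the other lists in the lesion comparisons, with called probes in red and list medians as bars. The member median was -0.92 in papilloma against papilloma skin and -0.23 in tumor against tumor skin, where scanner files with ComBat turned Il2rb and Ifng in the former from -1.5 and -1.74 to 0.12 and 0.33.

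Markers of other cell types were also called between the same groups. Of the neutrophil list, Ltf (-2.46), Camp (-4.14 and -4.12), Ngp (-3.27) and Mmp8 (-1.95), proteins of neutrophil granules, were called lower in papilloma than in papilloma skin, beside S100a9 (-0.04), S100a8 (-0.30) and Clec4d (0.30). The same genes and Ly6g (-2.09) were called lower in tumor than in tumor skin, with Ltf at -2.31, Camp at -3.57 and -3.88, Ngp at -3.39 and Mmp8 at -1.92, beside S100a9 (-0.02), S100a8 (-0.09) and Clec4d (0.21). B cell and plasma cell genes (9 of 10 on the array, 11 probes) had Igj called lower in papilloma (-6.71), beside Cd22 (-0.05), Blnk (0.40) and Cd79a (-0.27), and Igj (-7.13), Cd79b (-3.06) and Pou2af1 (-3.21) in tumor, beside Cd22 (-0.24), Blnk (-1.52) and Cd79a (-1.52). Their sum was 27200 and 12600 in papilloma skin, 13000 and 42500 in tumor skin, 3020, 2380 and 3510 in papilloma, and 1870 and 2260 in tumor, and Igj made up 75% to 88.5% of it on the skin arrays. Without Igj the sum was 3650 and 2910 in papilloma skin, 3260 and 4870 in tumor skin, 2780, 2330 and 3270 in papilloma, and 1730 and 2120 in tumor, so that papilloma 3 overlapped with skin. The part of B cells, or of lymphocytes in general, in the member differences was not tested.

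Eosinophil genes (8 of 9 on the array, 9 probes) had 4 called lower in papilloma: Ear2 (-3.87), Ccr3 (-2.29), Ear1 (-3.43) and Il5ra (-1.95), beside Siglec5 (-0.18), Prg2 (-1.06) and Epx (-0.54). In tumor Ear2 (-3.29), Ccr3 (-2.03), Ear1 (-2.89) and Il5ra (-1.64) were called lower and Siglec5 higher (1.38 and 1.59), beside Prg2 (0.64), Epx (0.14) and Prg3 (-0.42). Among the eosinophil genes Siglec5 was brightest on average over all arrays, at 11.83, while Ear2 made up the largest part of their sum on papilloma skin 1, papilloma skin 2 and tumor skin 2. The eosinophil sum was 18100 and 14000 in papilloma skin, 9490 and 9290 in tumor skin, 3880, 5140 and 5060 in papilloma, and 9540 and 8500 in tumor. Without Siglec5 it was 14100 and 10500 in papilloma skin, 5920 and 6770 in tumor skin, 1330, 1120 and 1650 in papilloma, and 1340 and 889 in tumor. Of 13 keratinocyte genes with 21 probes, 3 were called higher in papilloma, Krt16 (2.38), Krt6b (4.88 and 3.29) and Krt6a (3.38), beside Krt5 (1.37), Trp63 (-0.47) and Krt14 (2.18). Tumor had Krt14 (3.29), Krt16 (2.94), Krt6b (7.23 and 3.83) and Krt6a (3.74) called higher, beside Krt5 (1.24), Trp63 (-0.39) and Krt17 (0.08). The keratinocyte sum was 17900 and 12400 in papilloma skin, 11700 and 23400 in tumor skin, 51400, 26700 and 22700 in papilloma, and 28700 and 87800 in tumor. Krt5 was brightest on average over all arrays, at 12.58. The largest part of the sum came from Trp63 on papilloma skin 1, papilloma skin 2 and tumor skin 1, and from Krt6b on the tumor arrays. Skin arrays thus had more eosinophil marker signal than papilloma arrays, and than tumor arrays when Siglec5 is left out, and, tumor skin 2 and papilloma 3 aside, less keratinocyte signal than lesion arrays, and the part of either in the member levels was not tested.

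Monocyte and macrophage genes (11 of 12 on the array, 16 probes) had Emr1 called lower with 2 probes in papilloma (-3.09 and -2.94) and in tumor (-2.04 and -2.17), beside Csf1r (-0.47 and -0.17), Cd68 (0.55 and 0.27) and Ccr2 (-2.28 and -2.01). Their sum was 65700 and 58000 in papilloma skin, 51000 and 48300 in tumor skin, 45800, 44500 and 51000 in papilloma, and 47000 and 41600 in tumor, with Csf1r highest at 14.88. Dendritic and Langerhans cell genes (11 genes, 16 probes) had Itgax called higher in papilloma (1.87), beside H2-Ab1 (-0.34), H2-Eb1 (-0.01) and H2-Aa (-0.24), and H2-Ab1 called lower in tumor (-2.33), beside Itgax (0.81), H2-Eb1 (-0.24) and H2-Aa (-1.61). Their sum was 37900 and 26800 in papilloma skin, 19500 and 29300 in tumor skin, 50000, 40300 and 51000 in papilloma, and 20100 and 18100 in tumor, and papilloma arrays were highest, as for Thy1. Itgax was brightest on average over all arrays, at 13.62, while H2-Ab1 made up the largest part of the sum on each skin array and papilloma 3 (45.2% to 72.4%). Of 8 mast cell genes with 9 probes, limma called 0 in either comparison, with 2 and 2 at an unadjusted p under 0.05, beside 20.7% and 26.9% of all probes. Hdc (0.12 and 0.09), Kit (-0.06 and -1.36) and Mcpt4 (0.36 and -0.15) were the brightest. The mast cell sum was 136000 and 178000 in papilloma skin, 147000 and 143000 in tumor skin, 163000, 184000 and 160000 in papilloma, and 169000 and 139000 in tumor, 97.8% to 99% of it from Hdc. In tumor against tumor skin, fibroblast Pdgfrb was called higher (1.68) and Dcn lower (-1.38, flipped in 5 of 6 scanner-file settings), beside Col1a2 (0.10), Col1a1 (1.86) and Col3a1 (1.28), and endothelial Cdh5 was called higher (2.39), beside Kdr (-1.30), Vwf (1.09) and Pecam1 (0.50). This Kdr value is from the probe of mean log2 level 12.70, while the other Kdr probe was called higher in lesions against skin (1.67).

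Between the value sources, Cd3d and Xcl1 in tumor against tumor skin and Xcl1 in papilloma against papilloma skin kept their direction in every setting. None of these calls was kept from the scanner files. From the scanner files with quantile normalization and ComBat, Cd3d had a log2 fold change of -2.04 (limma adjusted p = 0.0584) and Xcl1 of -4.16 (0.0875) in tumor against tumor skin, and Xcl1 of -2.13 (0.0746) in papilloma against papilloma skin. In lesions against skin the same setting called Cd3d (-1.21, limma adjusted p = 0.0260), Xcl1 (-3.15, 0.0194) and Thy1 (1.64, 0.0144), and Ifng had -0.85. In the other 4 scanner-file settings with all 9 arrays limma called 0 member probes in lesions against skin. At an unadjusted p under 0.05 they had 2 to 3 member probes, beside 6.68% to 8.74% of all probes. Of all probes normexp called 0.185% and the other settings 0, so that the count of called members says little about the members. Among the 3 members called lower in lesions as a whole, Cd3d and Xcl1 were thus called from the scanner files with ComBat only, and Ifng from the value table only. The ComBat fit kept 5 residual degrees of freedom, against 3 with a slide term, so that its p may be too small. Leaving out the 3 columns of arrays with a low spike-in slope, a choice made after seeing the data, left papilloma skin, tumor skin and tumor with 1 array each and the papilloma arrays as the only measure of spread, so that calls from that fit are not described.

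**Figure D5:**
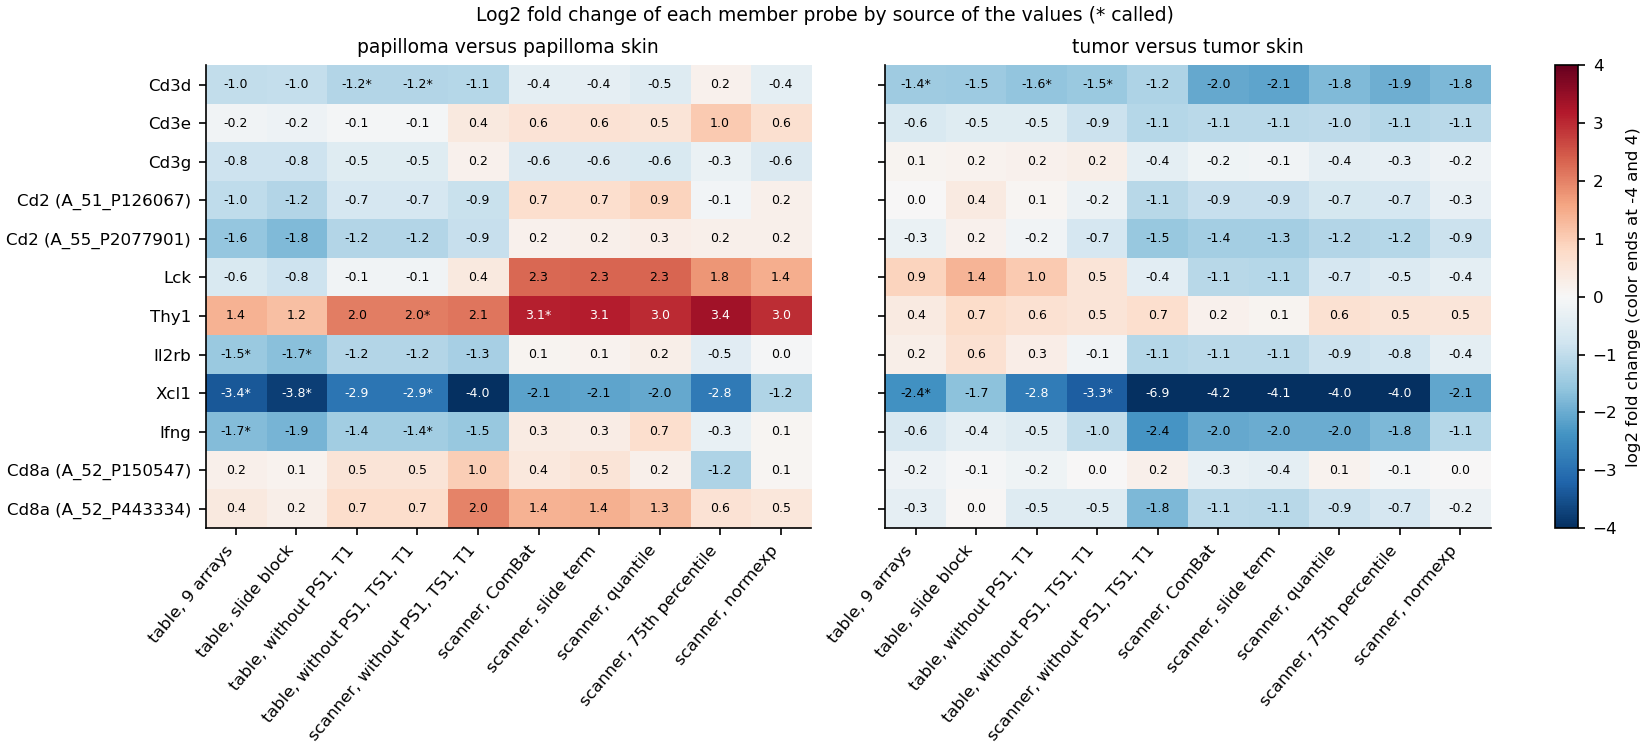
Log2 fold change of each member probe (columns of cells by setting, color ends at -4 and 4, asterisks mark calls) in papilloma against papilloma skin and tumor against tumor skin from the value table and the scanner files. Xcl1 was below 0 throughout, between -3.97 and -1.21 in papilloma against papilloma skin, while Ifng and Il2rb in that comparison changed sign between the table (-1.74 and -1.5) and the scanner files with ComBat (0.33 and 0.12).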

How the data were processed

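RNA of sorted neutrophils was measured on 9 one-color Agilent arrays of 4 groups, and groups were taken from the sample labels. The authors deposited log2 values of each probe on each array, and their methods name quantile normalization and ComBat for the effect of the chips, without saying which of these the values went through. They also deposited scanner files with fluorescence intensity per spot, background-subtracted by the Feature Extraction software and not scaled between arrays. Gene names and probe positions (mm9) are those of the scanner files, and sequences of promoters are from RefSeq (GRCm38.p6).

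These log2 values were fitted as deposited with limma 3.58.1 in R 4.3.3, with a mean per group, 9 columns and 5 residual degrees of freedom, after a test on simulated data. The 6 comparisons of the report were tested, and calls used the thresholds given in the report. Alternatives started from 59305 scanner spots that are not controls, averaged per probe, with outlier flags left out: quantile normalization with ComBat (written for this purpose), with a slide term or alone, scaling to the 75th percentile, normexp with an offset of 50, and the 6 arrays whose spike-in slope reached 0.9. On the value table they were slide or replicate number as a block, no level minimum, probes above background on at least 2 arrays, the median per gene, and leaving out each array or the columns papilloma skin 1 and tumor 1. Leaving out the 3 columns of arrays with a low slope was added after seeing the data.

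Named are all members with each probe, list genes that were called in a sentence's comparison with the 3 of highest mean level that were not, and the 8 genes most like the members (log2 level at least 6, SD at least 0.5, 1 probe per gene), and 1 gene of the other lists is not reported here although the counts include it. The members and lists were chosen with earlier results of these data known. The number of arrays limits the precision. Tables were read with version 1.17.8 of data.table, Python 3.11.15, pandas 2.3.3 and numpy 2.4.6, and figures drawn with matplotlib 3.10.9.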

Additional observations from a re-analysis of the deposited data

How the results depend on the processing

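The counts of called member probes were 3 in papilloma against papilloma skin, 2 in tumor against tumor skin, 0 in tumor against papilloma, 0 in tumor skin against papilloma skin, 3 in lesions against skin and 0 for the difference of the lesion effects in limma, and under the alternatives 103 counts stayed within 1.5 times and 29 did not. A count of 0 that stayed 0 was taken as staying, which holds for most fits of the comparisons with a main count of 0. The 103 therefore overstate how steady the counts above 0 were. From the scanner files the papilloma count was 1 with ComBat and 0 with a slide term, with quantile normalization alone, with the 75th percentile, with normexp and with the 6 full-slope arrays (1 to 6 member probes at an unadjusted p under 0.05), the tumor count was 0 in all 6 of these settings (1 to 5), and the lesion count was 0 in all but ComBat (2 to 7). These settings also called 0 of all probes in the papilloma and tumor comparisons, except ComBat (7.19% and 0.221%), and in lesions against skin 3.18% with ComBat, 0.185% with normexp and 0 with the other 4, so that most of these member counts could only be 0. In the same 6 settings 9.01% to 41.2% of all probes had an unadjusted p under 0.05 in papilloma against papilloma skin. The share was 1.66% to 15.6% in tumor against tumor skin and 6.68% to 24.1% in lesions against skin. With slide as a block the tumor count was 0 (3 member probes at an unadjusted p under 0.05). This block called 0.375% of all probes there, with 17.5% at an unadjusted p under 0.05, against 4.21% and 26.9% in the main fit. The counts without the columns papilloma skin 1 and tumor 1, where papilloma skin and tumor have 1 array each, are given above. With probes above background on 2 arrays the count of tumor against papilloma was 1 of 11 member probes. In this setting 0.909% of 33430 probes were called there, against 0.447% in the main fit. Leaving out 1 papilloma array, which keeps at least 2 arrays in each group, gave 1 to 3 in papilloma against papilloma skin (2.27% to 2.54% of all probes called). It gave 2 in tumor against tumor skin (3.31% to 3.92%), 3 in lesions against skin (3.42% to 3.55%), 0 in tumor against papilloma (0.0826% to 0.278%) and 0 in the other comparisons. Leaving out an array of another group leaves 1 array there, and the calls lost in those fits are given with each gene. An arm left with 1 array is assumed to vary like the other groups, and with the 6 full-slope arrays, or the table without the 3 low-slope columns, only the papilloma arrays measure spread (2 degrees of freedom). With the replicate number as a block the papilloma count was 1 (Xcl1, log2 fold change -3.67, limma adjusted p = 0.0431), the tumor count 1 (Cd3d, -1.41, 0.0475) and the lesion count 2 (Cd3d and Xcl1), while the share of all probes called was 0.991%, 1.32% and 2.91% against 3.18%, 4.21% and 3.62% in the main fit, and since correlations of same-numbered arrays' deviations ran from -0.957 to 0.376 the number was not taken to pair the samples, although 9 of 12 same-numbered pairs shared a slide. Under the alternatives, log2 fold changes were counted for 18 results only, each 1 probe in 1 comparison. Of these values 275 kept direction and side of the threshold, 66 lost a call, 9 gained one and 46 reversed, all 46 from the scanner files. Other reversals given above, such as that of Cd3e in papilloma against papilloma skin, are not in these counts. In papilloma against papilloma skin, where the main values are below 0, Cd2 was 0.68 (ComBat), 0.68 (slide term), 0.89 (quantile) and 0.21 (normexp) with the probe of 10 spots, and 0.17, 0.19, 0.25, 0.19 (75th percentile) and 0.20 (normexp) with the other, Il2rb was 0.12, 0.13 and 0.25, and Ifng was 0.33, 0.28, 0.66 and 0.09 (normexp). In tumor skin against papilloma skin, also below 0 in the table, Cd2 was 0.34, 0.33, 0.12 and 0.019 (75th percentile) with the probe of 10 spots, and 0.63, 0.62, 0.46, 0.38 (75th percentile), 0.32 (normexp) and 0.21 (6 arrays) with the other. There Lck was 2.02, 2.04, 1.59, 1.04, 0.74 and 0.40, Thy1 was 0.97, 1.02, 0.53, 0.46 and 0.57, Il2rb was 0.32, 0.32 and 0.10, and Xcl1 was 0.44, 0.42, 0.28, 0.19, 0.25 and 0.22, in the same order of settings. Scaling to the 75th percentile moved the median of all probes to -0.40 in papilloma against papilloma skin, -0.16 in tumor against tumor skin, -0.32 in lesions against skin and 0.28 in tumor against papilloma, and quantile normalization alone moved it to 0.12 in the first and -0.12 in the last. For the difference of the lesion effects the median was -0.185 with ComBat, -0.179 with a slide term, -0.21 with quantile normalization alone and 0.26 with the 75th percentile. The cause of these changes was not tested. Signal near background limits Cd8a and, in tumor, Xcl1.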
